A study of Mus musculus with 10 samples.

Results

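The genes described here are 40 chaperone and unfolded protein response genes, chosen by symbol from a fixed list and sorted by compartment. All 40 were among the 24544 genes of the count table. There were 14 chaperones and folding enzymes of the endoplasmic reticulum (ER), 7 sensors and effectors of the unfolded protein response (UPR), 9 cytosolic heat shock genes, 3 mitochondrial chaperones and 7 subunits of the chaperonin CCT. The libraries came from long-term hematopoietic stem cells of the bone marrow of Hoxb5-mCherry mice aged 2 to 3 months, a strain in which mCherry reports expression of the stem cell gene Hoxb5. Every cell had passed one gate, namely Lin-, cKIT+, SCA1+, CD150+, CD48-, FLK2-, CD34- and Hoxb5+. The groups differed in the surface receptor neogenin-1: 5 libraries held NEO1+ cells and 5 held NEO1- cells, each made from 250 to 500 cells of 2 pooled mice. The labels name no treatment, and both groups carry the reporter allele.

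Chaperones bind unfolded proteins and help them reach their native shape. When unfolded proteins gather in the ER, the sensors IRE1 (encoded by Ern1), PERK (Eif2ak3) and ATF6 (Atf6) start the UPR. IRE1 splices the mRNA of Xbp1, PERK slows translation and favours ATF4, and ATF6 is cut to release a transcription factor; together they raise the genes of ER chaperones. In the cytosol, HSF1 drives the heat shock genes. Blood stem cells are known for low protein synthesis and for sensitivity to misfolded protein. Splicing of Xbp1, phosphorylation and cleavage of the sensors are not measured by counts per gene.

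The ER stress response element (ERSE) and the heat shock element are the classical DNA motifs of the UPR and of HSF1, and copies found in these promoters are given below. RefSeq promoter windows (GRCm38.p6, from 250 bases before to 50 after the start site) were matched for 31 of the 40 genes. These 31 genes had 38 windows. Here and below a gene is counted if any of its windows matched, while the share over all promoters is per window. The ERSE, searched as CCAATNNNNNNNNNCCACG on both strands, was found in 6 of these 31 genes and in 0.119% of all 32851 windows. Each ERSE is printed below on the strand of its gene, with the match in capitals and 10 bases of flank. Those of Calr, Creld2 and the second of Hsp90b1 read in reverse.
Hspa5, chr2:34772015-34772053, + strand: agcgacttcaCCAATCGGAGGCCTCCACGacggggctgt
Hsp90b1, first, chr10:86705628-86705666, - strand: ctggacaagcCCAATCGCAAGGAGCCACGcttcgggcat
Hsp90b1, second, chr10:86705523-86705561, - strand: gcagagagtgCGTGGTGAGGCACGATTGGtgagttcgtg
Calr, chr8:84847065-84847103, - strand: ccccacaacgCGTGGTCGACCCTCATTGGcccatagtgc
Canx, chr11:50325790-50325828, - strand: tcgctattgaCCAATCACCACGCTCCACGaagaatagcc
Pdia6, chr12:17266481-17266519, + strand: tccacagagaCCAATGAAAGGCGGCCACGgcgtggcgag
Creld2, chr15:88819510-88819548, + strand: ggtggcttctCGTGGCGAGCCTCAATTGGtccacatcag

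The related ERSE-II, searched on both strands as ATTGG, any 1 base and CCACG, was in 2 of the 31 genes and in 0.0365% of all windows. The heat shock element, searched on both strands as 3 alternating units of GAA and TTC with any 2 bases between units, was in 3 of the 31 genes and in 0.603% of all windows. Hspd1 and Hspe1, which encode the mitochondrial HSP60 and HSP10, lie head to head on chromosome 1. The same stretch, read from opposite strands, lies in a window of each gene. It holds 2 overlapping matches, of which 1 is marked in each line. For Hspd1 the stretch lies inside the annotated gene. Another window of Hspd1, chr1:55088194-55088493, covers the start of the annotated gene and held no match.
Dnajb11, ERSE-II just after the start site, chr16:22857842-22857872, + strand: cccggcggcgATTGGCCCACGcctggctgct
Herpud1, ERSE-II, chr8:94386367-94386397, + strand: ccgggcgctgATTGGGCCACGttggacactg
Hspd1, heat shock element, chr1:55088054-55088086, - strand: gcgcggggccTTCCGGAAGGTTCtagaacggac
Hspe1, heat shock element, chr1:55088049-55088081, + strand: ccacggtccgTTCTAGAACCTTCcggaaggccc
Hsph1, heat shock element after the start site, chr5:149636287-149636310, - strand: atgctgcagaTTCTGGAAAGTTCt
Of the other motifs searched on both strands, TGACGTGG (the UPRE core) was in 0 of the 31 genes against 0.676% of windows. TGATGNAA (the core of the C/EBP-ATF response element) was in 1, Herpud1, against 3.97% of windows. A match describes letters in a window and shows no binding. The windows of Hspa1a, Hspa1b, Dnajb1, Dnajb9, Sdf2l1, Pdia4, Xbp1 and Ddit3 held no match. This does not show that these genes lie outside the responses.

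Library totals ran from 21.2 to 38.9 M counts. Values are CPM, counts per 1000000 counts, after TMM scaling of library sizes; a count of 0 allows up to 3 counts, or between 0.0699 and 0.144 CPM depending on the library. The 10 stem cell marker genes summed to 2014 to 2269 CPM among NEO1+ libraries and 1948 to 2398 CPM among NEO1- libraries. Among markers of other blood cells, the 6 erythroid genes summed to 3.20 to 169 CPM and 0.255 to 47.5 CPM, and the 8 granulocyte and monocyte genes to 491 to 3837 CPM among NEO1+ libraries and 382 to 2948 CPM among NEO1- libraries. The 5 plasma cell markers in the table, of a cell type rich in ER chaperones, summed to 2.77 to 232 CPM and 2.28 to 31.4 CPM. The 6 B cell genes summed to 34.1 to 51.7 CPM among NEO1+ and 26.1 to 60.9 CPM among NEO1- libraries. Of these, Cd79b was at 33.1 to 50.3 and 25.0 to 60.9 CPM. The 5 T cell genes in the table summed to 4.59 to 13.1 CPM and 0 to 12.3 CPM. Of these, Lck was at 3.68 to 12.9 and 0 to 12.2 CPM. The globin genes Hbb-bt and Hbb-bs, the B cell genes Igll1 and Ms4a1 and the T cell genes Cd3e and Cd8a had 0 counts in all 10 libraries. Neo1 was at 47.5 ± 20.5 CPM among NEO1+ libraries and 10.7 ± 5.66 CPM among NEO1- libraries (SD, n = 5 each), but at 12.5 CPM in the library labelled NEO1+ 4, which is within the NEO1- range of 4.56 to 18.9 CPM.

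The question for each gene was whether its level differed between NEO1+ and NEO1- stem cells. In 4 of the 5 compartments the groups overlapped for every gene tested. The gene without overlap was the ER stress sensor Atf6, about 2.29-fold higher in NEO1+ cells. As a share, 1 of 39 is close to the 2.48% of all genes tested that had no overlap. In bulk libraries, fewer cells that express a gene and less of its RNA per cell cannot be told apart. A minimum level was passed by 39 of the 40 genes; Hspa1b did not pass and was not tested. By the quasi-likelihood test of edgeR with Benjamini-Hochberg adjustment, 0 of 39 passed an adjusted p of 0.05, as did 0% of all 12203 genes tested. Neo1, whose product the cells were sorted by, did not pass either (log2 fold change 2.16, SE 0.47, adjusted p 0.248 by edgeR). A gene that did not pass is therefore not shown to be equal between the groups. With an unadjusted p under 0.05 there was 1 of 39, Atf6, a smaller share than the 6.6% of all genes tested. With the library number as a block there were 4 of 39, against 7.16% of all genes tested. DESeq2, run as an alternative, called 1 of them, again Atf6, against 1.03% of genes with an adjusted p. The median log2 fold change over the 39 genes was -0.04 (17 positive and 22 negative), against 0.01 over all genes tested, of which 51% were positive. The 95% interval of the log2 fold change lay within 0.5 either way for 20 of the 39 genes, and for 9.96% of all genes tested. For these 20 genes a difference beyond that size is outside the interval. The 2 shares are not matched for level: 1385 of the 12203 genes had a mean of at least 100 CPM, which many of the 39 exceed. They do not show that these genes vary less than others of their level.

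**Figure D1:**
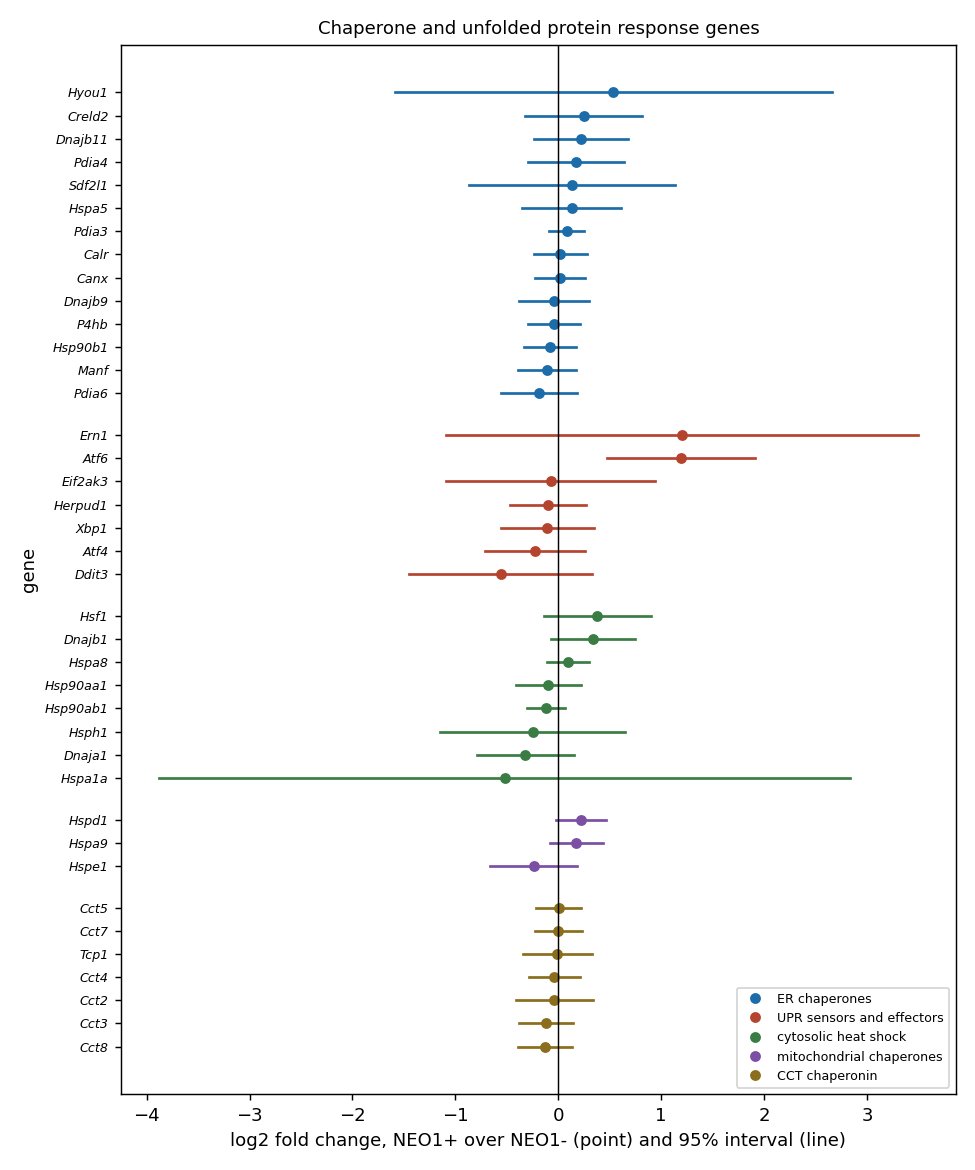
Log2 fold change of NEO1+ over NEO1- (horizontal axis) for the 39 tested genes (vertical axis), coloured by compartment, with points for the edgeR estimate and lines for its 95% interval from 5 libraries a group. The interval of Atf6 (0.47 to 1.91) is the one that does not cross 0, and those of Hspa1a, Ern1 and Hyou1 are the widest.

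No ER chaperone passed the test, and the groups overlapped for each of them. Their median log2 fold change was 0.05 (9 positive, 5 negative, 14 tested), and 0 of 14 passed the edgeR test, adjusted or not. Hspa5 encodes BiP, the HSP70 of the ER lumen and the usual readout of the UPR. Hspa5 was at 508, 619.8, 549, 796 and 468 CPM in NEO1+ libraries 1 to 5 and at 441, 519, 533, 880.5 and 318 CPM in NEO1- libraries 1 to 5. The groups overlapped, and library 4 was the highest of both. Its log2 fold change was 0.13 (SE 0.22, adjusted p 0.998 by edgeR), with a 95% interval from -0.35 to 0.61, and it ran from -0.011 without NEO1- library 5 and -0.0045 without NEO1+ library 4 to 0.38 without NEO1- library 4.

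Pdia3, Pdia6 and Dnajb11 had the smallest p values of this compartment. Pdia3 encodes ERp57, the oxidoreductase that works with calnexin and calreticulin. Pdia3 stood at 516, 538, 526, 525 and 457 CPM in NEO1+ libraries 1 to 5 and at 452, 495, 499, 523 and 452 CPM in NEO1- libraries 1 to 5. It varied least of the ER genes, with a log2 fold change of 0.08 (SE 0.08, adjusted p 0.957 by edgeR). Pdia6, another disulfide isomerase, was at 185, 272, 259.7, 284 and 178 CPM in NEO1+ libraries 1 to 5 and at 329.5, 292, 251.1, 285 and 187 CPM in NEO1- libraries 1 to 5. The groups overlapped over most of their range, and the log2 fold change was -0.19 (SE 0.17, adjusted p 0.952 by edgeR). Dnajb11 encodes ERdj3, a J-domain partner of BiP. Its level was 66.0, 68.5, 64.8, 105 and 90.4 CPM in NEO1+ libraries 1 to 5 and 93.1, 46.8, 56.2, 75.3 and 66.7 CPM in NEO1- libraries 1 to 5. Neither group was above the other, and the log2 fold change of Dnajb11 was 0.22 (SE 0.21, adjusted p 0.957 by edgeR).

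The abundant lectin chaperones gave the closest group means of the ER genes. Calr (calreticulin) averaged 415 ± 47.9 CPM among NEO1+ libraries and 409.6 ± 66.3 CPM among NEO1- libraries, and Canx (calnexin), its membrane-bound relative, 283 ± 27.9 and 279.8 ± 36.2 CPM (SD, n = 5 each). Their log2 fold changes were both 0.02, with 95% intervals of -0.24 to 0.27 and -0.22 to 0.26. Hsp90b1 (GRP94, the HSP90 of the ER) averaged 279.7 ± 43.7 and 295 ± 26.3 CPM, and P4hb (protein disulfide isomerase) 337 ± 38.9 and 347 ± 53.0 CPM (SD, n = 5 each). Manf, a secreted ER stress protein, had a log2 fold change of -0.11 (95% interval -0.39 to 0.17), and Dnajb9, which encodes the IRE1 regulator ERdj4, one of -0.04 (-0.38 to 0.30).

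Less abundant ER genes had wide intervals. Pdia4 had a log2 fold change of 0.17 (SE 0.22) and Creld2, an ER stress-induced protein, one of 0.25 (SE 0.26). Sdf2l1, a partner of ERdj3, ranged from 14.3 to 25.0 CPM among NEO1+ libraries and from 6.09 to 32.3 CPM among NEO1- libraries, with a log2 fold change of 0.13 (SE 0.47). Hyou1 (GRP170, the nucleotide exchange factor of BiP) was at 6.82 to 12.7 CPM in NEO1+ libraries. In NEO1- libraries Hyou1 reached 13.2 CPM but had 0 counts in library 3, which allows up to 0.102 CPM. The interval of its log2 fold change, from -1.59 to 2.66, includes large differences in either direction. The 6 genes that carry the ERSE printed above had log2 fold changes between -0.19 and 0.25.

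Among the UPR sensors, Atf6 was the one whose groups did not overlap. Atf6 (chr1:170704674-170867771, - strand, GRCm38) was at 20.3, 23.9, 30.1, 29.3 and 35.5 CPM in NEO1+ libraries 1 to 5 and at 9.26, 19.5, 11.2, 7.26 and 13.6 CPM in NEO1- libraries 1 to 5. Every NEO1+ library was above every NEO1- library, with NEO1+ library 1 and NEO1- library 2 closest to each other. Atf6 was the only one of the 39 genes without overlap, a share close to the 2.48% of all genes tested. The group means were 27.8 ± 5.89 and 12.2 ± 4.74 CPM (SD, n = 5 each), and the log2 fold change was 1.19 (SE 0.33, 95% interval 0.47 to 1.91). By edgeR its unadjusted p was 0.00327 and its adjusted p 0.404, so it did not pass. DESeq2 gave an adjusted p of 0.0336 at the same fold change, and the adjusted p over all alternatives ran from 0.0336 to 0.9998. Leaving out 1 library moved the log2 fold change between 1.06 and 1.43, and it was 1.17 without the library labelled NEO1+ 4, where Neo1 was low. No exon of Atf6 overlaps another gene in GENCODE M21, and 0% of its 50-base words occur in transcripts of other genes. Atf6b, which encodes a relative of ATF6 and belongs to a list of further UPR genes, averaged 26.7 ± 6.27 CPM among NEO1+ libraries and 41.4 ± 13.1 CPM among NEO1- libraries (SD, n = 5 each). Its log2 fold change was -0.63 (SE 0.26, unadjusted p 0.0315, adjusted p 0.691 by edgeR), and its groups overlapped (20.6 to 35.8 and 27.9 to 62.8 CPM).

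Other measures also tended to be higher in NEO1+ libraries. The G2 and M phase sum parted the groups as Atf6 did, while the S phase sum and the genes detected overlapped. The 12 S phase genes summed to 1170 to 1743 CPM among NEO1+ libraries and 635 to 1228 CPM among NEO1- libraries, and 0 of them passed the edgeR adjustment, although 7 had an unadjusted p under 0.05. The 12 G2 and M phase genes summed to 322 to 517 CPM and 73.1 to 198 CPM, without overlap; 8 had an unadjusted p under 0.05 and 0 passed by edgeR. DESeq2, which called Atf6, also called 2 of the S phase genes (Mcm4, adjusted p 0.000651, and Uhrf1, 0.0144) and 1 of the G2 and M phase genes (Cdk1, 5.7e-05). Genes detected per library numbered 12800 to 13808 among NEO1+ libraries and 11477 to 13147 among NEO1- libraries. When genes detected per library entered the fit as a covariate, the log2 fold change of Atf6 was 1.25, with an edgeR unadjusted p of 0.0448. The part of the cycling genes in the difference was not tested.

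The other sensors were low and uneven. Ern1 was at 27.4, 4.63, 9.88, 9.79 and 2.53 CPM in NEO1+ libraries 1 to 5 and at 0, 3.56, 5.35, 7.51 and 7.18 CPM in NEO1- libraries 1 to 5. Library 1 was the highest of NEO1+ and had no count in NEO1-, where 0 counts allow up to 0.0955 CPM. The log2 fold change of Ern1, 1.20, was as large as that of Atf6 but had an SE of 1.06 (adjusted p 0.952 by edgeR), and it was 0.51 without NEO1+ library 1. Eif2ak3 averaged 14.7 ± 8.03 CPM among NEO1+ libraries and 15.5 ± 8.77 CPM among NEO1- libraries (SD, n = 5 each), with a log2 fold change of -0.08 and an interval from -1.09 to 0.94. Libraries of the same group varied widely for both genes, with coefficients of variation of 54.5% to 90.4%, and their intervals include large differences in either direction.

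**Figure D2:**
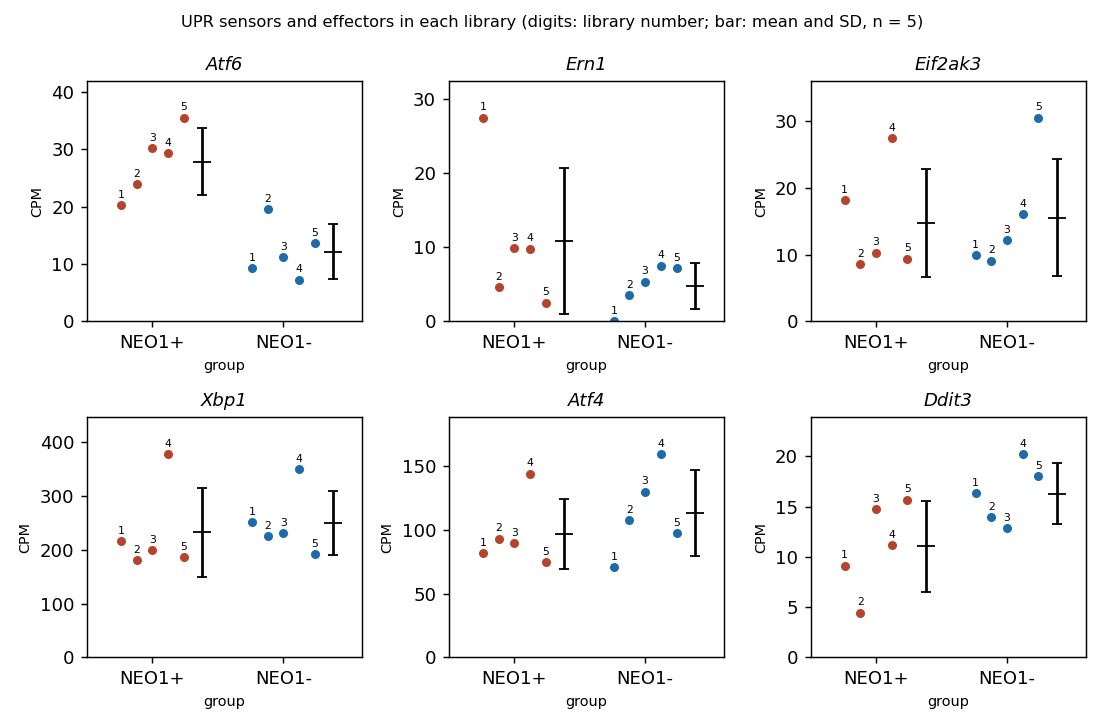
CPM (vertical axes, each from 0) of 6 UPR sensors and effectors in the 5 NEO1+ and 5 NEO1- libraries (horizontal axes), with library numbers beside the points and bars for the mean and SD. Atf6 separates the groups, while Xbp1 and Atf4 are highest in the libraries numbered 4 of both groups.

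For the transcription factors downstream of the sensors the groups overlapped. Xbp1, whose mRNA is the target of IRE1, was at 216, 181, 199.9, 378 and 187 CPM in NEO1+ libraries 1 to 5 and at 251.04, 225, 231, 350.2 and 192 CPM in NEO1- libraries 1 to 5. Library 4 stood above the others in both groups, which otherwise overlapped. The log2 fold change was -0.11 (SE 0.21, adjusted p 0.998 by edgeR), but 0.05 without NEO1- library 4 and -0.35, with an unadjusted p under 0.05, without NEO1+ library 4. Atf4, the effector of PERK and of the integrated stress response, was at 81.9, 93.4, 89.99, 144 and 74.8 CPM in NEO1+ libraries 1 to 5 and at 71.0, 108, 130.2, 160.0 and 97.8 CPM in NEO1- libraries 1 to 5. It too was highest in library 4 of each group, with a log2 fold change of -0.23 (SE 0.23, adjusted p 0.966 by edgeR) that was -0.07 without NEO1- library 4 and -0.41 without NEO1+ library 4.

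Ddit3 encodes CHOP, the factor tied to cell death after prolonged ER stress. Ddit3 was at 9.12, 4.45, 14.7, 11.2 and 15.7 CPM in NEO1+ libraries 1 to 5 and at 16.3, 14.0, 12.8, 20.2 and 18.0 CPM in NEO1- libraries 1 to 5. Most NEO1- libraries were above most NEO1+ libraries, but the groups overlapped, and the log2 fold change of -0.56 (SE 0.41) had an edgeR adjusted p of 0.905. Herpud1, which takes part in the degradation of ER proteins and carries the ERSE-II shown above, averaged 111 ± 13.1 and 119 ± 29.6 CPM (SD, n = 5 each). Over the 7 genes of this compartment the median log2 fold change was -0.10, with 2 positive and 5 negative.

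Over the cytosolic heat shock genes the median log2 fold change was -0.11 (3 positive, 5 negative, 8 tested), and none passed the edgeR test, adjusted or not. The constitutive chaperones were the most precisely measured. Hsp90ab1, the constitutive cytosolic HSP90, averaged 1579 ± 159 CPM among NEO1+ libraries and 1719 ± 180.3 CPM among NEO1- libraries, and Hspa8 (HSC70, the constitutive HSP70) 1309 ± 135 and 1227 ± 150.3 CPM (SD, n = 5 each). Their log2 fold changes were -0.12 (95% interval -0.31 to 0.06) and 0.09 (-0.11 to 0.30). Hsp90aa1, the inducible cytosolic HSP90, averaged 600.2 ± 105 and 641 ± 129 CPM (SD, n = 5 each), with a log2 fold change of -0.10.

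Hsf1, Dnaja1 and Dnajb1 had the smallest p values of the compartment. Hsf1, the heat shock transcription factor, was at 68.9, 41.9, 50.9, 69.6 and 55.4 CPM in NEO1+ libraries 1 to 5 and at 30.5, 37.9, 63.3, 33.5 and 55.1 CPM in NEO1- libraries 1 to 5. Its groups overlapped, and the log2 fold change was 0.38 (SE 0.24, adjusted p 0.886 by edgeR). Dnajb1 (HSP40), a J-domain partner of HSP70, was at 265, 281, 176, 369 and 262 CPM in NEO1+ libraries 1 to 5 and at 210.4, 237, 173, 285 and 167 CPM in NEO1- libraries 1 to 5. The lowest NEO1+ value of Dnajb1 lay near the low end of NEO1-, and the log2 fold change was 0.34 (SE 0.19, adjusted p 0.826 by edgeR). Dnaja1, a second J-domain partner, was at 156, 167, 194, 298 and 158 CPM in NEO1+ libraries 1 to 5 and at 261, 159, 260.4, 342 and 194 CPM in NEO1- libraries 1 to 5. It leaned the opposite way to Dnajb1, with a log2 fold change of -0.32 (SE 0.22, adjusted p 0.896 by edgeR); neither lean passed the test.

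The stress-inducible HSP70 genes were low in most libraries. Hspa1a was at 2.74, 3.84, 3.45, 60.9 and 0.726 CPM in NEO1+ libraries 1 to 5 and at 15.0, 5.53, 0, 82.3 and 0 CPM in NEO1- libraries 1 to 5. Library 4 was the highest of both groups, at 22.6 times the mean of the other NEO1+ libraries and 16.1 times that of the other NEO1- libraries. Between the groups the log2 fold change was -0.52 with an SE of 1.56 (adjusted p 0.998 by edgeR), and it was -2.93 without NEO1+ library 4 and 1.48 without NEO1- library 4. Hspa1b, its near-identical neighbour on chromosome 17, had 0 counts in 5 of the 10 libraries. It was at 0, 0, 0.0233, 0.0913 and 0 CPM in NEO1+ libraries 1 to 5 and at 0, 0.140, 0.0339, 1.98 and 0 CPM in NEO1- libraries 1 to 5, where 1.98 CPM is 65 counts and the other values are at most 3 counts. Of the 50-base words in Hspa1a transcripts, 58.8% also occur in Hspa1b, and reads from such stretches cannot be assigned to one of them, so both genes are uncertain. Hsph1 (HSP110, a nucleotide exchange factor of HSP70), whose heat shock element is printed above, was at 97.6 CPM in NEO1+ library 4 and 96.8 CPM in NEO1- library 4, against 17.5 to 48.9 CPM and 36.1 to 50.9 CPM in the other libraries of each group.

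Many of these genes were highest in the libraries numbered 4 of both groups, a pattern noticed after the values were seen and given without a test. Library 4 was the highest of both groups for 14 of the 39 genes, against 3.44% of all genes tested and 5.42% of the 1385 genes with a mean of at least 100 CPM. Libraries numbered 3 were the highest of both groups for 1 gene, P4hb (3.98% of all genes tested), and those numbered 1, 2 or 5 for 0 (5.75%, 4.2% and 4.16%). The libraries numbered 5 were the lowest of both groups for 7 of the 39 genes, against 3.04% of all genes tested. For numbers 1 to 4 these counts of lowest values were 1, 1, 3 and 0, against 8.18%, 4.15%, 3.88% and 2.33%. The 14 were Hspa5, Calr and Manf of the ER, Xbp1 and Atf4 of the UPR, and Hspa1a, Hsp90aa1, Hsp90ab1, Hsph1, Dnaja1 and Dnajb1 of the cytosol, with Hspd1, Cct5 and Cct7. Against the mean of the other libraries of its group, the ratio of library 4 was 1.93 for NEO1+ and 1.56 for NEO1- in the case of Xbp1, and 1.70 and 1.57 for Atf4. For Hspa5 these ratios were 1.48 and 1.95, for Dnaja1 1.76 and 1.57, and for Hsph1 3.02 and 2.24. Atf6 did not share the pattern: NEO1- library 4 was the lowest of its group, at 0.542 of the mean of the others. Among further cytosolic chaperones and cochaperones, 4 of 26 were highest in both libraries numbered 4, namely Stip1, Ahsa1, Chordc1 and Cacybp. In other lists of further genes the count was 0 of 19 for ER folding, 0 of 14 for ER-associated degradation and 0 of 9 for CCT and prefoldin. It was 2 of 16 for the UPR and integrated stress response and 1 of 15 for mitochondrial folding and proteases.

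Some features of the libraries moved with this pattern and others did not. Counts of Rn45s, the precursor of ribosomal RNA, made up 27.9% of NEO1+ library 4 and 30.7% of NEO1- library 4, the lowest share of each group, against up to 37.7% and 42.4%. Genes detected numbered 13142 and 13147, the latter the most of its group. The S phase sum was 1743 CPM in NEO1+ library 4, the highest of its group, and 1080.2 CPM in NEO1- library 4, which was not. The 10 immediate early genes, which respond to cell handling, summed to 8059.7 CPM in NEO1+ library 4 and 8844 CPM in NEO1- library 4, within the ranges of 6332 to 12863.5 and 6725 to 12565 CPM, and 0 of them were highest in both libraries. Plasma cell markers were at 2.77 and 2.28 CPM in these libraries, the lowest sums of their groups. The part of any of these in the pattern was not tested. Without both libraries numbered 4, Atf6 had a log2 fold change of 1.03 (edgeR unadjusted p 0.0190) and 0 of the genes passed the adjusted threshold.

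**Figure D3:**
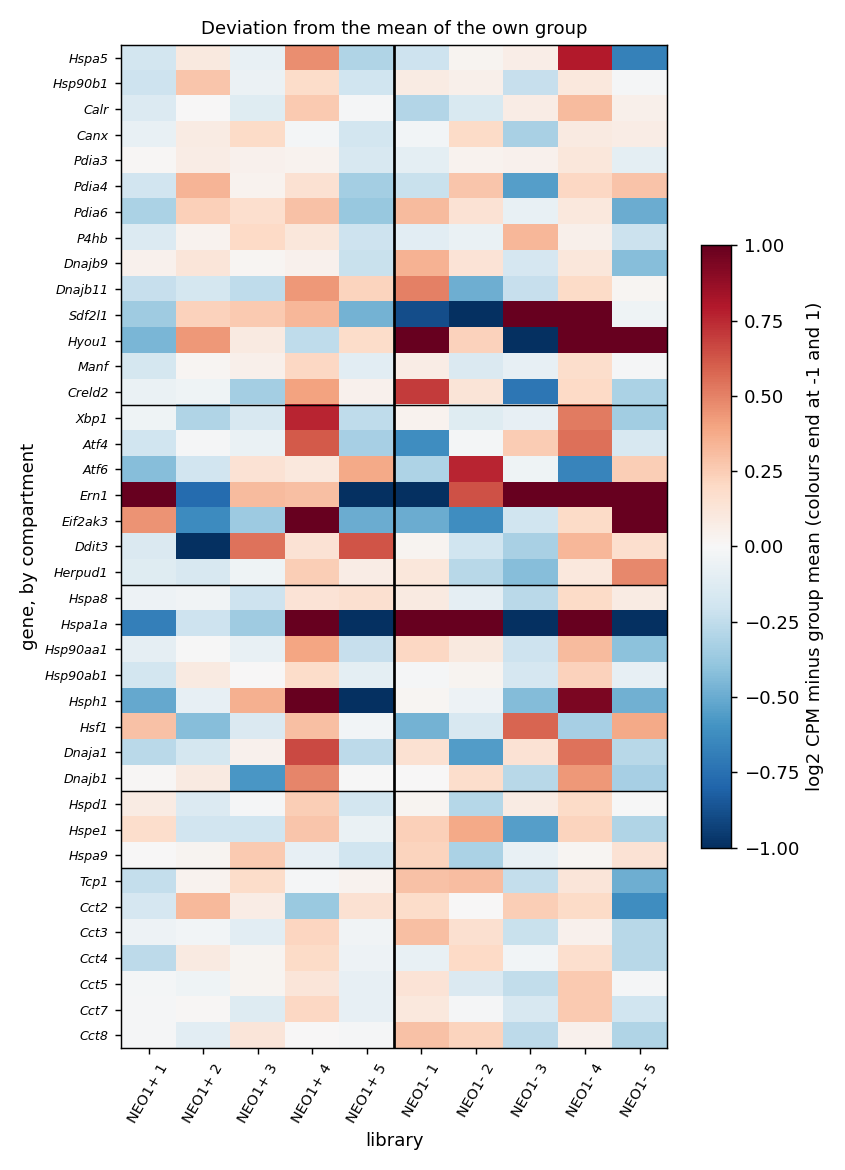
Log2 CPM of the 39 tested genes (rows, by compartment) in the 10 libraries (columns), each minus the mean of its own group, with red above and blue below it and colours ending at 1 in each direction. The columns of NEO1+ library 4 and NEO1- library 4 are red for Hspa5, Xbp1, Atf4, Hspa1a, Hsph1, Dnaja1 and Dnajb1.

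The mitochondrial chaperones were measured with narrow intervals and did not pass either. Hspd1 was at 329, 282, 308, 368 and 273 CPM in NEO1+ libraries 1 to 5 and at 272, 218, 282, 304 and 266 CPM in NEO1- libraries 1 to 5. NEO1+ libraries tended to be higher, with overlap, and the log2 fold change was 0.22 (SE 0.11, unadjusted p 0.0770, adjusted p 0.808 by edgeR). Hspe1, its partner across the shared stretch printed above, had 81.5, 63.2, 62.8, 87.3 and 68.7 CPM in NEO1+ libraries 1 to 5 and 98.3, 108, 56.9, 97.3 and 67.7 CPM in NEO1- libraries 1 to 5. The direction of Hspe1 was the opposite, with a log2 fold change of -0.24 (SE 0.20, adjusted p 0.934 by edgeR), and the groups overlapped fully. Hspa9 (mortalin, the mitochondrial HSP70) was at 262, 266, 313, 247 and 227 CPM in NEO1+ libraries 1 to 5 and at 269.7, 186, 220.0, 235 and 255 CPM in NEO1- libraries 1 to 5, a log2 fold change of 0.18 (SE 0.12, adjusted p 0.898 by edgeR). For Hspd1, 42.1% of the 50-base words recur in other gene models, mostly the pseudogene Hspd1-ps3.

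The subunits of the CCT chaperonin, the ring that folds actin and tubulin, had nearly equal group means. Its 7 subunits had log2 fold changes between -0.13 and 0.00 (median -0.04), and all 7 had 95% intervals within 0.5 either way. Cct8, of smallest p among the 7, was at 303, 284, 332, 306 and 303 CPM in NEO1+ libraries 1 to 5 and at 404, 384, 276, 339.9 and 268 CPM in NEO1- libraries 1 to 5. The NEO1- libraries lay on both sides of the NEO1+ libraries, which were close to each other. Its log2 fold change was -0.13 (SE 0.12, adjusted p 0.954 by edgeR). Cct3 was at 239.5, 244, 232, 289 and 243 CPM in NEO1+ libraries 1 to 5 and at 330.1, 299.8, 230.3, 276 and 221 CPM in NEO1- libraries 1 to 5 (log2 fold change -0.12, SE 0.12, adjusted p 0.966 by edgeR). Here too the NEO1- libraries spread on both sides of NEO1+. Cct4 was at 249, 318, 303, 341 and 288 CPM in NEO1+ libraries 1 to 5 and at 291, 351, 300.4, 344 and 252 CPM in NEO1- libraries 1 to 5, a log2 fold change of -0.04 (SE 0.11, adjusted p 0.998 by edgeR). Its groups overlapped over nearly their whole range, and the sign turned without NEO1+ library 1 (0.023), NEO1- library 2 (0.015) or NEO1- library 4 (0.0067). Cct5 averaged 393 ± 21.3 and 392 ± 56.3 CPM, and Cct7 338 ± 30.5 and 339 ± 45.7 CPM (SD, n = 5 each). Tcp1 and Cct2 had log2 fold changes of -0.01 and -0.04. The median coefficient of variation over the 7 subunits was 9.09% among NEO1+ and 16.99% among NEO1- libraries, a difference that was not tested.

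Levels were compared between genes per kb of the principal GENCODE M21 transcript. The most abundant were Hsp90ab1, at 626 CPM per kb among NEO1+ libraries and 682 among NEO1- libraries, and Hspa8, at 547 and 513. Their SDs were 56.3 to 71.6 CPM per kb. Next came Cct5 at 212 CPM per kb in both groups, Calr at 190.1 and 188, Pdia3 at 185 and 175, Hsp90aa1 at 183 and 195, and Hspa5 at 160.2 and 147. The order among these genes was not tested: Calr, Pdia3 and Hsp90aa1 lay within their SDs of each other, while Cct5 (212 ± 11.5 CPM per kb in NEO1+ libraries, SD, n = 5) lay above Pdia3 (185 ± 11.6). Those CCT subunits that are among the 40 genes, which assemble one to one, lay between 79.8 CPM per kb (Tcp1) and 212 (Cct5) in NEO1+ libraries. The sensors were low, with Atf6 at 3.84 and 1.68 CPM per kb, Eif2ak3 at 3.27 and 3.44, and Ern1 at 1.56 and 0.679. Hyou1, at 2.14 and 1.48 CPM per kb, and Hspa1a, at 4.83 and 6.93, were in the same range, and Hspa1b was lowest, at 0.00817 and 0.153. Xbp1, at 109 and 117 CPM per kb, was far above its upstream enzyme. Transcript choice and shared sequence limit such comparisons: 16 of the 40 genes have no 50-base word in common with another gene, while Hspa8, Hspa1a, Hspa1b, Hsp90aa1, Dnaja1, Hspd1 and Hspe1 share more than 20%.

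**Figure D4:**
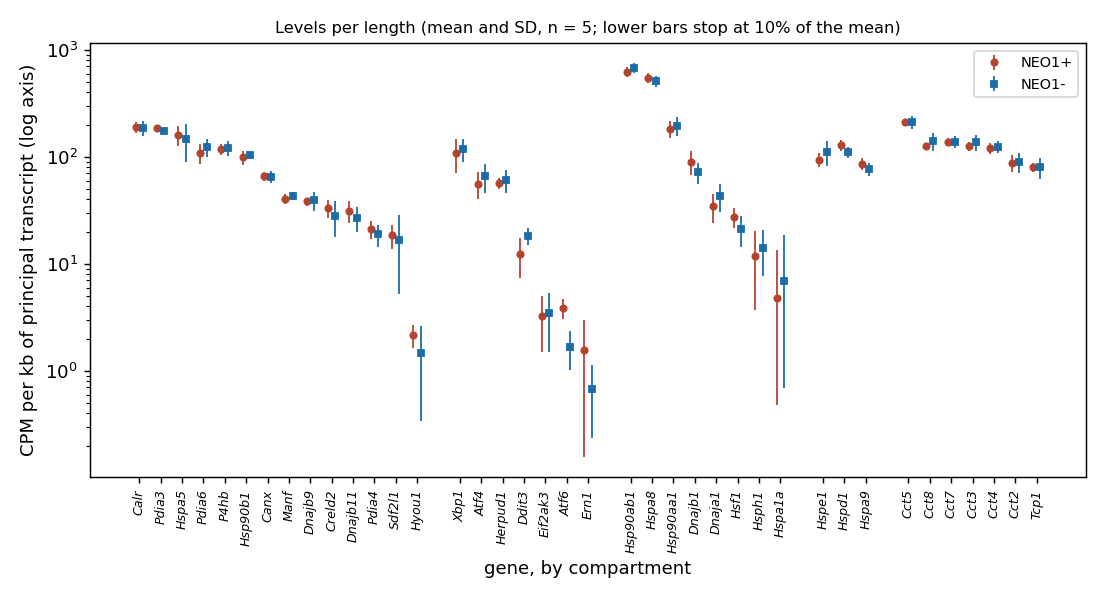
Mean CPM per kb of principal transcript (log axis) with SD over 5 libraries for 39 genes, by compartment; red circles are NEO1+ and blue squares NEO1- libraries, and Hspa1b is not drawn. Hsp90ab1 and Hspa8 are the highest, the sensors Eif2ak3, Atf6 and Ern1 lie below 10 CPM per kb, and Atf6 is the gene whose groups part.

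Further genes of protein folding, taken from 6 lists of 103 genes (102 in the table, 99 tested), were also without calls. By edgeR 0 of 99 passed the adjusted threshold, while 4 higher and 6 lower in NEO1+ had an unadjusted p under 0.05, against 3.11% and 3.49% of all genes tested. Their median log2 fold change was 0.00. Among 19 further ER folding genes, the smallest p values belonged to Tmx1, a membrane-bound oxidoreductase (log2 fold change 0.44, SE 0.15, adjusted p 0.563 by edgeR), and Ssr1, a subunit of the translocon-associated complex (0.27, SE 0.11, adjusted p 0.7101). Among 14 genes of ER-associated degradation they belonged to Faf2 (0.54, SE 0.24) and the mannosidase-like Edem3 (1.42, SE 0.67). Besides Atf6b, the 16 further UPR and integrated stress response genes were led by the heme-regulated kinase gene Eif2ak1 (0.35, SE 0.26).

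Among 26 further cytosolic chaperones and cochaperones, Bag3, an HSP70 cochaperone, averaged 28.2 ± 6.88 CPM among NEO1+ libraries and 45.1 ± 14.3 CPM among NEO1- libraries (SD, n = 5 each; log2 fold change -0.68, SE 0.26, adjusted p 0.616 by edgeR). Hsf2, the relative of Hsf1, had -1.30 (SE 0.57, adjusted p 0.721). Among 15 mitochondrial folding and protease genes, the protease gene Afg3l2 had 0.42 (SE 0.16) and the import gene Timm44 -0.50 (SE 0.21). Of the 9 tested CCT and prefoldin genes, 2 had a positive log2 fold change; Pfdn5, a prefoldin subunit, had -0.29 (SE 0.11, adjusted p 0.633 by edgeR) and Pdcl3, a CCT cofactor, -0.40 (SE 0.18). DESeq2 gave adjusted p values of at least 0.205 for each of these 12 genes.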

How the data were processed

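RNA of 250 to 500 sorted cells per library was made into cDNA by Smart-seq2 with 18 PCR cycles, and 40 ng was tagmented, per the labels' protocols; the libraries carry no molecular identifiers, so floors for 0 counts cover counting error only; the 95% intervals of fold changes come from the spread between libraries. The submitters' processing notes name STAR 2.4, DESeq2 1.22.2 and mm10 (GRCm38); the counting tool, annotation and strand use are not given in the sources used here. The authors deposited raw counts per gene symbol, used for all main values, and log2 values, which equal log2 of the count over 1 size factor per library plus 1 (largest residual 5.2e-14).

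The test was the robust quasi-likelihood fit of edgeR 4.0.16 (R 4.3.3) with group as the only term, after filterByExpr and TMM, and p-values were adjusted over all 12203 genes retained; the common biological coefficient of variation was 0.717. The SE of a log2 fold change is its size divided by the root of F. DESeq2 1.42.0 and limma 3.58.1 served as alternatives. No pair of libraries of a group agreed within sampling noise (chi-square per degree of freedom at least 86.7). Each library is from 2 pooled mice, the labels do not say whether sorts were separate, and p-values measure the spread between these libraries. Values in full are given for the 3 genes of smallest p per compartment and for Hspa5, Xbp1, Atf4, Ddit3, Hspa1a, Hspa1b and Hsf1, and from each further list the 2 of smallest p are named. The fits were also run on simulated data, and the share of simulated differences that they recovered is not given here. Members and lists were chosen with earlier results of these data known. Loci and lengths come from GENCODE M21, promoters from RefSeq; 1 of the further genes (Mesdc2) was not matched.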

Additional observations from a re-analysis of the deposited data

Results flagged for a closer look

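In 78 groups of 5 values (39 genes, 2 groups), 7 held 1 library that stood apart, with a distance to the next library above 0.71 of the group's range (the 95% limit of Dixon's test), where chance gives about 1 in 20 groups, or 3.9. NEO1+ library 4 was high for Xbp1 (8.56 log2 CPM, next 7.76) and for Cct3 (8.18 log2 CPM, next 7.93). Low values stood apart for Pdia3 (8.84 log2 CPM, next 9.01) and Dnajb9 (6.33, next 6.58) in NEO1+ library 5, and for Cct2 (6.81 log2 CPM, next 7.44) in NEO1- library 5. Hyou1 in NEO1- library 3 and Ern1 in NEO1- library 1 had 0 counts, which stands as -3.98 log2 CPM with a prior count of 2, against 1.76 and 1.86 in the next libraries.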

How the results depend on the processing

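The count of 0 of the 39 genes past the edgeR threshold held with RLE size factors, without a low-count filter, with a stricter filter, without Rn45s, with limma-trend on the deposited values, with the replicate block and without any 1 library; DESeq2 gave 1 (Atf6). Genes with an unadjusted p under 0.05 numbered 1, but 4 with the replicate block (Atf6, Dnaja1, Dnajb1 and Hspd1, against 7.16% of all genes tested), 2 with genes detected as a covariate (added after the data were seen; Atf6 and Hsp90ab1, against 2.27%) and 1 to 3 without 1 library (against 5% to 7.98%), Atf6 always among them; 3 were reached without NEO1- library 4 (with Dnajb1 and Hspd1) or without NEO1+ library 4 (with Xbp1 and Dnaja1), and 2 without NEO1- library 3, NEO1+ library 3 or NEO1+ library 5. The labels state no shared source for libraries of the same number, and the main fit does not pair them. Deviations of same-numbered libraries correlated by 0.004 to 0.036 over all genes, and 3 of 5 numbers correlated best with their own. Taken over all genes, those of low counts included, these values cannot settle whether such libraries share mice or a sort, which was not tested. Without 1 library the median log2 fold change ran from 0.01 to 0.11 for ER chaperones, -0.35 to 0.04 for UPR genes, -0.19 to 0.11 for cytosolic, 0.10 to 0.22 for mitochondrial and -0.11 to 0.01 for CCT genes. Without 1 library the sign turned for 16 of the 39 genes, none with a log2 fold change beyond 0.52 either way, and among the 19 described in full for Hspa5 (-0.011 to 0.38), Xbp1 (-0.35 to 0.048), Hspa1a (-2.93 to 1.48) and Cct4 (-0.10 to 0.023). Hspa5 was -0.19 with genes detected as a covariate, and Hspa1a 1.56 with limma-trend and 0.80 with the replicate block; the cause was not tested. The limma-trend fit put the median of all genes at 0.112. Hyou1, Ern1, Hspa1a and Hspa1b have libraries with 0 counts; the part of depth in this was not tested.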

Other observations

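The 10 immediate early genes had their highest sum in the libraries numbered 2 of both groups, at 12863.5 CPM in NEO1+ library 2 and 12565 CPM in NEO1- library 2. The sum over all 40 chaperone and UPR genes was highest in the libraries numbered 4, at 11907 CPM and 12166 CPM; by compartment this held in both groups for the ER, UPR and cytosolic sums, while in NEO1- the mitochondrial and CCT sums were highest in library 1.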
